A study of Mus musculus with 6 samples.

Results

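Growth factors that vascular and stromal cells send to the lung epithelium, together with their receptors, were examined in lungs of old and young mice after acid injury. The set held 10 genes chosen by name, of which 7 were ligands (Hgf, Fgf1, Fgf2, Fgf7, Fgf10, Kitl and Nrg1) and 3 were receptors (Met, Fgfr1 and Kit). A gene was kept when its Ensembl identifier was well formed and all 6 libraries gave a readable value under 1000000. This left 7 members of 19033 genes in all, namely Fgf1, Fgf2, Fgf7, Fgf10 and Nrg1 among the ligands and Met and Fgfr1 among the receptors. The rows of Hgf, Kitl and Kit were not intact, so hepatocyte growth factor, stem cell factor and the stem cell factor receptor are not analysed here.

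The libraries came from 3 old and 3 young C57/BL6 mice, 1 library per mouse, all with acid injury of the lung. The labels call the material vascular endothelial cells, while the extraction protocol describes tissue that was homogenized and names no sorting step. No age in months, sex or time after injury is given, and no uninjured lungs were analysed here. Values are listed in the order of mice 1, 2 and 3 of each age. Levels are FPKM, fragments per kilobase of gene scaled to library size, so they can be set beside each other between genes.

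Endothelial cells release factors such as hepatocyte growth factor and stem cell factor that act on neighbouring cells, and this signalling is termed angiocrine. Fibroblast growth factors bind receptor tyrosine kinases with heparan sulfate chains as co-receptors. Fgf7 and Fgf10 are made by mesenchymal cells of the lung and act on the epithelial form of Fgfr2, which drives epithelial growth and lung branching. Hepatocyte growth factor signals through Met, and neuregulin 1 through Erbb3 and Erbb4 paired with Erbb2.

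The promoters of Fgf7 and Met are shown because Fgf7 was the one member past the test threshold and Met is the receptor that marks the epithelial side of the set. Each window runs from 250 bases before to 50 bases after the RefSeq gene start (RefSeq, GRCm38.p6). Capitals mark the letters of a CCAAT box (CCAAT), a GC box (GGGCGG) or an AP-1 motif (TGAGTCA), searched on both strands together with a TATA box (TATAAA). The windows are chr2:126034408-126034707 on the plus strand for Fgf7 and chr6:17463707-17464006 on the plus strand for Met.
Fgf7: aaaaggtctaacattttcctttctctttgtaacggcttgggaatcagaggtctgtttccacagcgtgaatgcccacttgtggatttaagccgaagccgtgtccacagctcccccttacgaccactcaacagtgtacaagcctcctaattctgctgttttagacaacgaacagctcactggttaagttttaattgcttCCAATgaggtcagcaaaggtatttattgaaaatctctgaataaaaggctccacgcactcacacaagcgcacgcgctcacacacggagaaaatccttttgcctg
Met: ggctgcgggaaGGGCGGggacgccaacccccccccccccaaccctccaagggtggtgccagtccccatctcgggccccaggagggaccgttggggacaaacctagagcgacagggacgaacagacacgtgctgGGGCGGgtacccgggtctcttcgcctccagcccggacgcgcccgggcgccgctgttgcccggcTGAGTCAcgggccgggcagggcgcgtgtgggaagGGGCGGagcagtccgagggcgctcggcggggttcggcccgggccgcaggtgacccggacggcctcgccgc
The Fgf7 window held 1 CCAAT box and 11 CpG dinucleotides, with a GC content of 45.7%. The Met window held 3 GC boxes, 1 AP-1 motif and 34 CpG dinucleotides, with a GC content of 75.7%. Of 32851 promoter windows of the same length, 37.4% held CCAAT, 35.7% held GGGCGG, 5.20% held TGAGTCA and 13.6% held TATAAA, and the median window held 7 CpG dinucleotides. A match describes letters in the window and no binding was measured. Fgf2 and Fgf10 also had a window, which is not shown, and Fgfr1 and Nrg1 had no entry.

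Libraries of the 2 ages differed in the cell types that their marker genes represent. The 13 intact endothelial markers summed to between 45.7 and 161 FPKM in old and between 559 and 1526 FPKM in young libraries, and 11 of 13 fell in old mice. That count was 4 with no filter and 2 to 5 when any 1 library was left out. In the other direction, 6 of 8 fibroblast, 4 of 8 mesothelial and 3 of 4 epithelial markers tested rose. Without single libraries the fibroblast count was 5 to 6. The mesothelial count was 0 without old mouse 2 or 3 and 1 without young mouse 1 or 3, and the epithelial count was 1 without old mouse 3. Of the remaining marker lists, 1 of 3 capillary genes fell, and 1 of 4 genes each rose for alveolar type 1 cells and myeloid progenitors. Over all tested genes, 2.95% rose and 2.03% fell. Of the called markers, Upk3b, Rspo1 and Mpo had young means of 0.455, 0.893 and 0.919 FPKM and entered through their old libraries. Vwf, with an old mean of 0.572 FPKM, entered through its young libraries. These marker counts are therefore a description. The other 9 of the 16 lists had no gene past the limma threshold, and they cover smooth muscle, alveolar type 2, mast, neutrophil, macrophage, T and natural killer, innate lymphoid, B and platelet genes. In these 9 lists between 0 and 3 genes each had an unadjusted p under 0.05, as did 23.1% of all tested genes. The neutrophil sum was low in young mouse 1 (53.4 FPKM) and high in young mice 2 and 3 (23760 and 24080 FPKM). Young mouse 1 weighed on these 9 lists: without it, 5 of 7 neutrophil markers and 1 of 10 macrophage markers passed, lower in old mice. Against it alone, 3 macrophage, 2 B cell and 2 smooth muscle markers passed, and 1 each of the neutrophil, alveolar type 2 and T and natural killer lists, all higher in old mice. No intact marker was at 0 in all 6 libraries. Of the alveolar type 2 list, however, Sftpb and Lamp3 were at 0 outside young mouse 2 (0.0982 and 0.0771 FPKM there). Sftpd of the same list ran from 3.83 FPKM in young mouse 1 to 60.6 FPKM in old mouse 1. Fewer cells of a type and less RNA per cell cannot be told apart in such bulk libraries, and age and cell makeup cannot be told apart either.

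Fgf7 was the only tested member past the threshold, and it was higher in the old libraries. Of the 5 members that entered the test, 1 passed, against 4.98% of all 10010 genes tested (2.95% higher and 2.03% lower in old). The groups did not overlap for 3 of the 5 members, Fgf7, Fgfr1 and Met, against 31.1% of all tested genes, and all 3 were higher in old mice, the direction in which 14.5% of all tested genes did not overlap. Fgf7, Met and Nrg1 had a young mean under 1 FPKM and entered through their old libraries, so these counts are a description. With no filter on the mean, Fgf7 had a limma adjusted p of 0.0490. The median difference over the 5 tested members was 0.64 on the log2(FPKM + 1) scale, against -0.01 over all tested genes. This median is a description too, since the filter let in Fgf7, Met and Nrg1 through their old libraries. Fgf2 and Fgf10 had a mean under 1 FPKM and were not part of that fit.

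**Figure D1:**
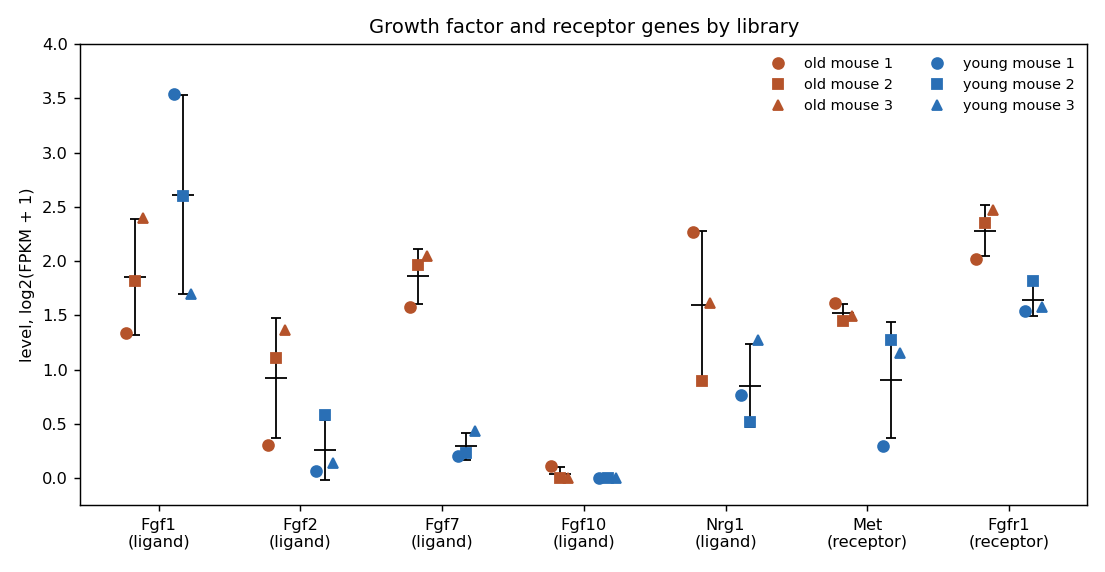
Level of each kept member in every library as log2(FPKM + 1), with old mice in brown and young mice in blue, symbols for mice 1 to 3, and bars for the mean ± SD (n = 3 per group). Fgf7 separates old from young libraries most widely among the members, Fgf1 has a young library above all others at 10.6 FPKM, and Fgf10 lies at or near 0 throughout.

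Among the ligands, Fgf7 is keratinocyte growth factor, a mesenchymal product that acts on epithelium (ENSMUSG00000027208, chr2:126034658-126091185 on the plus strand of GRCm38). It stood at 1.98, 2.89 and 3.12 FPKM in the old libraries, against 0.156, 0.179 and 0.351 FPKM in the young ones. All old libraries were above all young ones, and the lowest old value was far above the highest young value. These levels rest on 85, 107 and 182 fragments in old and on 9, 9 and 17 fragments in young libraries. The exact Poisson 95% intervals reached down to 1.58 FPKM in old and up to 0.562 FPKM in young libraries, so they did not meet, although they cover counting error only. Mean levels were 2.67 ± 0.606 FPKM (old) and 0.229 ± 0.107 FPKM (young; SD, n = 3 each), a ratio of means of 11.7. On the log2(FPKM + 1) scale, where changes at such low levels come out smaller, the difference was 1.57 ± 0.25 (SE; 95% interval 0.96 to 2.17; limma adjusted p = 0.0241).

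The call of Fgf7 held in 1 of the 6 fits that left out a single library, while its difference stayed between 1.47 and 1.71. Without old mouse 1 the limma adjusted p was 0.0467. It was 0.0783 without old mouse 2 and 0.0916 without old mouse 3, and it was 0.0578, 0.0543 and 0.0588 without young mouse 1, 2 or 3. It was 0.0894 when the old mice were set against young mouse 1 alone, the young library with few neutrophil transcripts. The difference was positive in all of these fits.

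The sum of the fibroblast markers was higher in all old libraries, as Fgf7 was. This sum was 1899, 4372 and 3009 FPKM in the old libraries, against 143, 229 and 121 FPKM in the young ones. Within an age the order differed. Old mouse 3 had the most Fgf7 and old mouse 2 the highest sum, while young mouse 3 had the most Fgf7 and the lowest sum among the young. Per 1000 FPKM of that sum, Fgf7 stood at 1.04, 0.662 and 1.04 FPKM in the old libraries, against 1.09, 0.781 and 2.90 FPKM in the young ones, and the groups overlapped. Per 1000 FPKM of the mesothelial sum, Fgf7 stood at 10.9, 5.58 and 8.46 FPKM in the old libraries, against 3.94, 3.76 and 12.5 FPKM in the young ones, again with overlap. The part of these cell types in the Fgf7 difference was not tested.

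**Figure D2:**
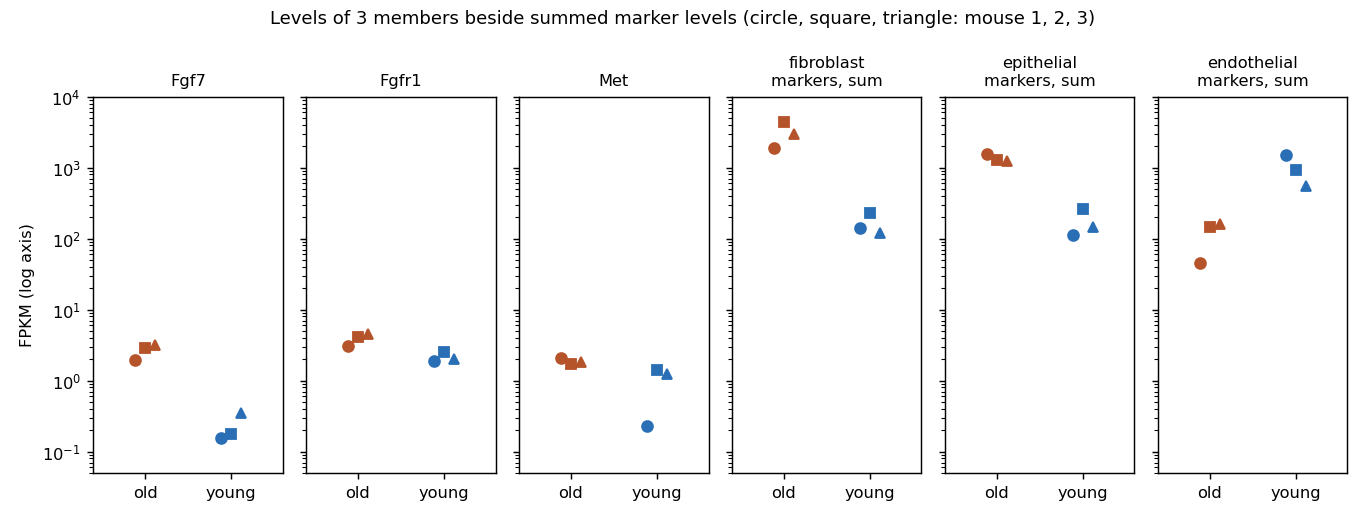
FPKM on a shared log axis for Fgf7, Fgfr1 and Met and for the summed fibroblast, epithelial and endothelial markers, with 1 point per library and circle, square and triangle for mice 1, 2 and 3. Fgf7 and the fibroblast sum are higher in all old libraries, the epithelial sum likewise, and the endothelial sum is higher in all young libraries.

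Fgf1, acidic fibroblast growth factor, binds all FGF receptors (ENSMUSG00000036585, chr18:38838673-38929472 on the minus strand). Its levels were 1.53, 2.53 and 4.28 FPKM in the old libraries, against 10.6, 5.07 and 2.25 FPKM in the young ones. The groups overlapped, since young mouse 3 lay below old mice 2 and 3. Means were 2.78 ± 1.39 FPKM (old) and 5.97 ± 4.25 FPKM (young; SD, n = 3 each), and the difference of -0.76 ± 0.51 on the log2(FPKM + 1) scale did not pass (SE; 95% interval -1.96 to 0.44; limma adjusted p = 0.399). It was -0.30 without young mouse 1, -0.50 without old mouse 1, -1.22 without young mouse 3 and -1.68 against young mouse 1 alone. Within each age, the libraries ranked by Fgf1 as they did by the summed endothelial markers, which were at 45.7, 145.6 and 161 FPKM in the old libraries, against 1526, 920.5 and 559 FPKM in the young ones. Per 1000 FPKM of that sum, Fgf1 stood at 33.5, 17.4 and 26.5 FPKM in the old libraries, against 6.94, 5.51 and 4.03 FPKM in the young ones, higher in all old libraries. The part of endothelial content in the Fgf1 values was not tested.

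Fgf2, basic fibroblast growth factor, is a heparin-binding ligand that acts on endothelium and mesenchyme (ENSMUSG00000037225, chr3:37348346-37410108 on the plus strand). It was at 0.234, 1.15 and 1.58 FPKM in the old libraries, against 0.0499, 0.494 and 0.0989 FPKM in the young ones. Old mouse 1 lay below young mouse 2, so the groups overlapped, and 6 to 52 fragments stood behind the young values. The exact permutation p was 0.2, where 3 against 3 libraries cannot give less than 0.1, and the difference in mean log2(FPKM + 1) was 0.66. Young mouse 2, the young library with most Fgf2, also had the highest smooth muscle sum, 1294 FPKM against 66.0 and 65.9 FPKM in young mice 1 and 3. Among the young it was highest as well in the fibroblast, mesothelial, epithelial, alveolar type 1 and 2, mast cell and myeloid progenitor sums. Some of these sums rest mostly on 1 gene. In young mouse 2, Cav1 gave 503 of 518 FPKM for alveolar type 1 and Cd34 gave 42.3 of 65.7 FPKM for progenitors. Tpsb2 (5.54 FPKM) was the only intact mast cell marker. The part of any of these cells in the value was not tested. The gene shares 640 exonic bases with Nudt6 on the opposite strand, which stood at 2.89, 3.67 and 1.96 FPKM in the old libraries, against 1.14, 1.61 and 1.80 FPKM in the young ones. No source used here says whether strand was used in counting, so reads of Fgf2 and Nudt6 may not have been kept apart. Shorter overlaps with an antisense gene were annotated for Fgfr1 (164 bases), Nrg1 (482 bases) and Fgf10 (123 bases), and the antisense partners of Fgfr1 and Nrg1 did not exceed 0.232 FPKM in any library.

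Fgf10, the ligand that directs branching of the developing lung bud (ENSMUSG00000021732, chr13:118669791-118792115 on the plus strand), was close to undetected. Old mouse 1 had 5 fragments, or 0.0822 FPKM, and the other 5 libraries were at 0. A count of 0 allows up to 3 fragments, which for this gene is 0.0364 to 0.0573 FPKM depending on the library. No fold is given, and the exact permutation p was 1. At this depth a difference in Fgf10 among levels this low was not detectable.

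Nrg1, neuregulin 1, is the one member that signals through ERBB receptors (ENSMUSG00000062991, chr8:31814551-32884029 on the minus strand). It was at 3.83, 0.857 and 2.05 FPKM in the old libraries, against 0.698, 0.436 and 1.42 FPKM in the young ones. Old mouse 2 lay below young mouse 3, so the groups overlapped. Means were 2.25 ± 1.495 FPKM (old) and 0.851 ± 0.510 FPKM (young; SD, n = 3 each), and the difference of 0.74 ± 0.41 on the log2(FPKM + 1) scale did not pass (SE; 95% interval -0.23 to 1.71; limma adjusted p = 0.323). Without old mouse 1 it was 0.40. Old mouse 1, the library with most Nrg1, also had the highest sum of myeloid progenitor markers, 2255 FPKM against 18.6 to 424 FPKM elsewhere. It had the highest epithelial (1556 FPKM) and alveolar type 2 (104 FPKM) sums as well. In that library the type 2 sum was nearly all Sftpd (60.6 FPKM) and Napsa (42.7 FPKM), while Sftpb and Lamp3 were at 0. Young mouse 3, with most Nrg1 among the young, had the lowest progenitor sum, 18.6 FPKM. The part of any of these cells in the Nrg1 levels was not tested.

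The receptors Fgfr1 and Met were both somewhat higher in old mice without passing the test. Fgfr1, an FGF receptor of mesenchymal and endothelial cells (ENSMUSG00000031565, chr8:25513654-25575718 on the plus strand), was at 3.06, 4.09 and 4.56 FPKM in the old libraries, against 1.91, 2.52 and 1.98 FPKM in the young ones. All old libraries were above all young ones. Means were 3.91 ± 0.765 FPKM and 2.14 ± 0.330 FPKM (SD, n = 3 each), and the difference was 0.64 ± 0.23 on the log2(FPKM + 1) scale (SE; 95% interval 0.09 to 1.19; limma adjusted p = 0.165). The interval is for Fgfr1 alone and leaves out 0, while the p is adjusted over all genes tested. Per 1000 FPKM of fibroblast markers Fgfr1 was lower in old mice, at 1.61, 0.936 and 1.52 FPKM against 13.4, 11 and 16.4 FPKM, with no overlap. Per 1000 FPKM of endothelial markers it was higher in old mice, at 67.1, 28.1 and 28.3 FPKM against 1.25, 2.73 and 3.55 FPKM. The direction thus depended on which marker sum Fgfr1 was set against.

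Met, the hepatocyte growth factor receptor and a gene of epithelium (ENSMUSG00000009376, chr6:17463800-17573980 on the plus strand), was at 2.06, 1.73 and 1.82 FPKM in the old libraries, against 0.228, 1.41 and 1.23 FPKM in the young ones. The groups did not overlap, and young mouse 1 stood apart from the other two young libraries. Means were 1.87 ± 0.171 FPKM and 0.957 ± 0.637 FPKM (SD, n = 3 each), and the difference was 0.61 ± 0.32 on the log2(FPKM + 1) scale (SE; 95% interval -0.15 to 1.38; limma adjusted p = 0.304). Without young mouse 1 the difference was 0.30. The epithelial markers summed to 1556, 1283 and 1238 FPKM in old and to 112, 258 and 145 FPKM in young mice. Most of this sum was Krt8 and Krt18, at 562 and 874 FPKM in old mouse 1 and 47.3 and 57.7 FPKM in young mouse 1. Scgb1a1 and Krt5 had no intact row, and Foxj1 and Trp63 did not exceed 1.21 and 0.622 FPKM. Per 1000 FPKM of that sum, Met was lower in old libraries, at 1.32, 1.35 and 1.47 FPKM against 2.04, 5.47 and 8.52 FPKM in young mice. The part of epithelial content in the Met values was not tested.

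By mean FPKM, the members ranked in old mice as Fgfr1, Fgf1, Fgf7, Nrg1, Met, Fgf2 and Fgf10. Neighbours in that order had overlapping ranges, with the exception of Met above Fgf2 and Fgf2 above Fgf10. In young mice the order was Fgf1, Fgfr1, Met, Nrg1, Fgf7, Fgf2 and Fgf10, and ranges were apart between Fgfr1 and Met, between Nrg1 and Fgf7 and between Fgf2 and Fgf10. Over all 6 libraries, each member had a mean below the median of the tested genes, which was 5.62 FPKM, although Fgf1 exceeded it in the young mean. Of the tested genes, 42.5% had a lower mean than Fgf1, the member with the highest mean, and 10.4% had a lower mean than Fgf7.

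The balance between the FGF ligands was different in the libraries of the 2 ages. Within a library, the FPKM of Fgf1 divided by that of Fgf7 was 0.773, 0.875 and 1.37 in old and 67.8, 28.4 and 6.41 in young mice. The ligands were thus near parity in all old libraries, and Fgf1 was the higher one in all young libraries, where Fgf7 rests on few fragments. The ratio of Fgf1 to its receptor Fgfr1 was 0.499, 0.619 and 0.939 in old and 5.55, 2.02 and 1.14 in young mice, also without overlap. The ratio of Fgf7 to Fgfr2, the receptor whose epithelial form it binds, was 0.704, 0.574 and 0.644 in old and 0.322, 0.220 and 1.35 in young mice, so the groups overlapped. The ratio of Nrg1 to Erbb2 overlapped as well, at 2.69, 0.716 and 1.02 in old and 0.1995, 0.172 and 1.15 in young mice. No test was run on the ratios.

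**Figure D3:**
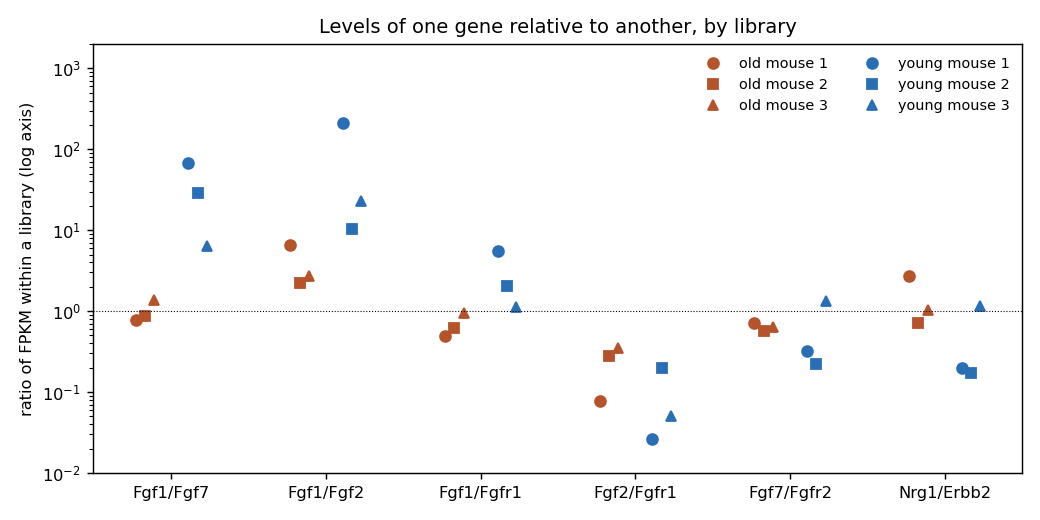
FPKM of one gene divided by that of another within each library, on a log axis, with old mice in brown, young mice in blue and a dotted line at a ratio of 1. Fgf1 over Fgf7 and Fgf1 over Fgfr1 are higher in all young libraries, while Fgf7 over Fgfr2 and Nrg1 over Erbb2 overlap between ages.

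The genes whose profile over the 6 libraries lay closest to a member were found among 8851 tested genes with an established symbol. The measure was the root-mean-square difference between log2(FPKM + 1) values centred on each gene's mean. For Fgf7 they were Ssc5d at 0.111, Morn4 at 0.135 and Cd276 at 0.146, set against a root-mean-square deviation of 0.800 for Fgf7 itself. For Fgf1 they were Ppp1r15a at 0.150, Klhl8 at 0.172 and Eml1 at 0.176 (0.720 for Fgf1 itself), and for Nrg1 they were Cenpa at 0.112, Mettl7b at 0.136 and Ube2t at 0.153 (0.587 for Nrg1 itself). For Fgfr1 they were Etfa at 0.0695, Yif1a at 0.0809 and Ccdc90b at 0.0981 (0.357 for Fgfr1 itself), and for Met they were Cib1 at 0.0876, Sh3bp1 at 0.0915 and Timm8b at 0.0981 (0.436 for Met itself). Likeness over 6 libraries is a description of these libraries.

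Of the other genes of these pathways, 104 were listed, 68 were intact and 40 were tested, of which 3 rose and none fell (limma), beside 2.95% and 2.03% of all tested genes. The count is a description, since Fgfr2 among the 3 reached the filter through its old libraries. It was 1 with no filter, 1 when mouse 1 of either age was left out, and 0 when old mouse 2 or 3 or young mouse 3 was left out. Of the 3, 2 belong to the receptor side of FGF signalling, in a list of receptors and co-receptors where 2 of 9 rose. The median difference of that list was 0.96 on the log2(FPKM + 1) scale, which is the value of Fgfbp1. Fgfbp1 was at 0.201, 5.24 and 0.690 FPKM in old and 0.0499, 0.655 and 0 FPKM in young libraries. It reached the filter through old mouse 2, so this median is also a description. Fgfr2, the receptor of Fgf7 and Fgf10, was at 2.81, 5.05 and 4.85 FPKM in the old libraries, against 0.486, 0.811 and 0.260 FPKM in the young ones. Its groups did not overlap, and it rose by 1.77 ± 0.29 (SE, limma adjusted p = 0.0242). With a young mean of 0.519 FPKM, Fgfr2 entered the test through its old libraries, and with no filter on the mean its limma adjusted p was 0.0587. Gpc3, a glypican that carries heparan sulfate at the cell surface, was at 23.7, 28.0 and 29.2 FPKM in the old libraries, against 0.650, 4.91 and 0.873 FPKM in the young ones. It too did not overlap, and it rose by 3.40 ± 0.49 (SE, limma adjusted p = 0.0179). The call of Fgfr2 ended when old mouse 2 or 3 or young mouse 1 or 3 was left out (limma adjusted p up to 0.0940), and that of Gpc3 without any 1 old mouse or young mouse 3 (up to 0.0782). The fibroblast and epithelial marker sums were also higher in all old libraries, and their part in these differences was not tested.

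The third was Hpn, the membrane protease hepsin, which can activate hepatocyte growth factor, in a list of 11 tested genes around Hgf and Met where 1 rose, none fell and the median difference was 0.32. Hpn was at 5.66, 4.24 and 4.09 FPKM in the old libraries, against 1.57, 2.01 and 1.57 FPKM in the young ones. All old libraries were above all young ones, and the difference was 1.05 ± 0.23 on the log2(FPKM + 1) scale (SE, limma adjusted p = 0.0499). That call sat at the threshold and ended when any 1 library was left out.

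The FGF ligands outside the members were all low. Of 18, 13 were intact and 0 reached the filter, so none was tested, and their highest value in any library was 2.35 FPKM, for Fgf3 in old mouse 3. Fgf12, an FGF that is not secreted, had the highest mean of them, at 1.23, 0.287 and 1.18 FPKM in the old libraries, against 0.276, 0.168 and 0.307 FPKM in the young ones. Fgf3, a secreted FGF, was at 0.585, 0.378 and 2.35 FPKM in the old libraries, against 0, 0 and 0.115 FPKM in the young ones.

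Of 19 listed FGF feedback inhibitors and targets, 9 were intact and 7 were tested. Spry1, Spry4, Dusp6, Etv1 and Etv5 had no intact row. In limma 0 of 7 passed, and 1 had an unadjusted p under 0.05 (23.1% of all tested genes). The median difference was -0.01, which is the value of Spry2. The groups did not overlap for 2 of 7, Spred1 and Spred2, both lower in old libraries. Over all tested genes 31.1% did not overlap, 16.7% being lower in old. Spry2, an inhibitor that FGF signalling induces, was at 3.05, 3.46 and 3.10 FPKM in the old libraries, against 3.49, 2.63 and 3.60 FPKM in the young ones. The groups overlapped closely, with a difference of -0.01 ± 0.22 (SE, limma adjusted p = 0.990) whose sign turned with median-of-ratios scaling (0.01). Spred1, an inhibitor of Ras signalling, was at 1.81, 4.12 and 4.201 FPKM in the old libraries, against 5.53, 4.32 and 6.19 FPKM in the young ones, with a difference of -0.58 ± 0.31 (SE, limma adjusted p = 0.311).

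Of 16 listed genes linked to KIT, 6 were intact, and Mitf, Gata2, Cpa3, Cma1 and Mcpt4 were among those without an intact row. The 6 gave no call either, with 0 past the limma threshold and 4 with an unadjusted p under 0.05 (23.1% of all tested genes). Their median difference of -0.08 lay between 3 positive values (Tpsb2, Tpsab1 at 1.51 and Ptpn6 at 0.82) and 3 negative ones (Sh2b3 at -0.99, Lyn at -1.20 and Fyn). The groups did not overlap for 4 of 6, against 31.1% of all tested genes. Tpsab1 (young mean 0.953 FPKM) reached the filter through its old libraries, so the counts and median of this list are a description. Tpsb2, a tryptase of mast cells, which depend on KIT, was at 17.8, 51.5 and 273 FPKM in the old libraries, against 1.83, 5.54 and 0 FPKM in the young ones. The groups did not overlap, and the difference was 4.61 ± 1.06 (SE, limma adjusted p = 0.0585). Fyn, a Src family kinase that acts downstream of KIT, was at 7.06, 21.3 and 17.3 FPKM in the old libraries, against 92.3, 24.8 and 34.5 FPKM in the young ones, with a difference of -1.57 ± 0.58 (SE, limma adjusted p = 0.169).

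Around neuregulin, 0 of 2 tested EGF-type ligands and 0 of 5 ERBB receptors and regulators passed in limma, with 1 and 2 at an unadjusted p under 0.05 (23.1% of all tested genes). Tgfa (old mean 0.711 FPKM) reached the filter through its young libraries and Egfr (young mean 0.436 FPKM) through its old ones. These counts are thus a description. Areg, amphiregulin, a ligand of the EGF receptor, was at 9.77, 8.90 and 6.01 FPKM in the old libraries, against 0.0464, 2.23 and 8.78 FPKM in the young ones. Young mouse 3 lay within the old range, and the difference was 1.50 ± 0.75 (SE, limma adjusted p = 0.281). Leaving out young mouse 1 gave 0.69, and leaving out young mouse 3 gave 2.30. Tgfa, another EGF receptor ligand, was at 0.676, 1.19 and 0.266 FPKM in the old libraries, against 3.64, 1.698 and 2.81 FPKM in the young ones, with no overlap and a difference of -1.12 ± 0.33 (SE, limma adjusted p = 0.103). Adam17, the protease that sheds such ligands from the cell surface, was at 2.90, 2.70 and 4.05 FPKM in the old libraries, against 6.42, 5.74 and 10.3 FPKM in the young ones, and its difference was -0.98 ± 0.28 (SE, limma adjusted p = 0.0962). Tgfa and Adam17 were thus lower in all old libraries without passing the test. Erbb2, the co-receptor for neuregulin, was at 1.42, 1.197 and 2.01 FPKM in the old libraries, against 3.50, 2.54 and 1.24 FPKM in the young ones, with a difference of -0.38 ± 0.32 (SE, limma adjusted p = 0.507). Erbb3 and Erbb4 had a mean under 1 FPKM and were not tested. Erbb3 was at 1.11, 0.920 and 0.473 FPKM in old and 0.0750, 0.129 and 0.0446 FPKM in young libraries. Erbb4 did not exceed 0.135 FPKM in any library.

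**Figure D4:**
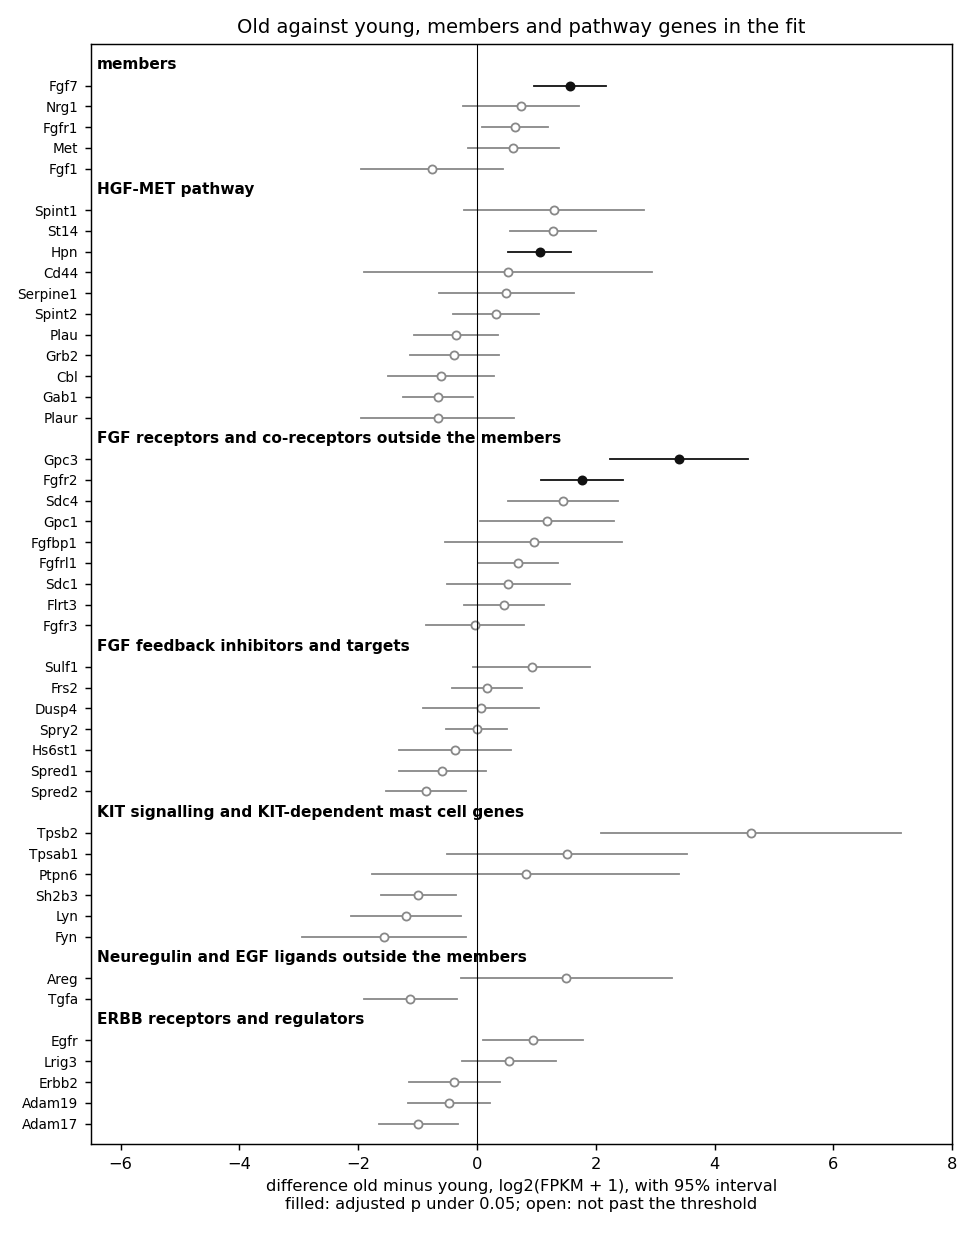
Old minus young difference on the log2(FPKM + 1) scale with its 95% interval for the 5 tested members and the 40 tested pathway genes, filled points for a limma adjusted p under 0.05 and open points for the rest. Fgf7 is the filled point among the members, and Gpc3, Fgfr2 and Hpn are the filled points among the pathway genes.

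The call of Fgf7 was also recomputed under 15 processing alternatives besides the replicate block, where it also ended. It held in 9 and ended in 6, with adjusted p-values from 0.0137 to 0.0916, and the difference stayed positive, from 1.47 to 3.55. With a pseudocount of 0.1 in place of 1 the difference was 3.09, and with 0.01 it was 3.55.

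**Figure D5:**
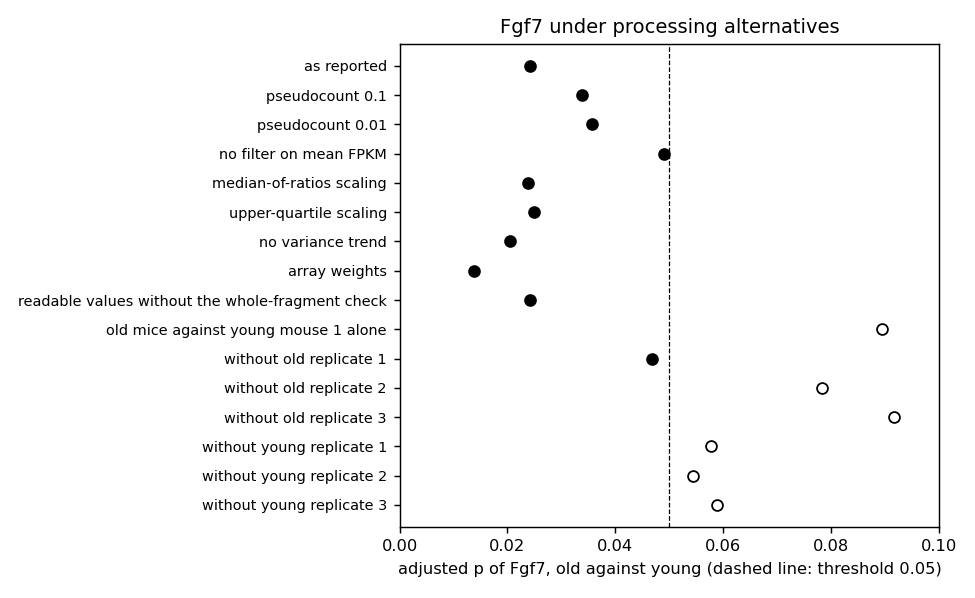
Adjusted p of Fgf7, old against young, as reported and under 15 alternatives (the replicate block is not drawn), with filled points below the dashed threshold of 0.05 and open points above it. The open points are 5 fits without 1 library and the fit against young mouse 1 alone.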

How the data were processed

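The authors deposited 1 table per library with FPKM values and, per the file headers, no read numbers; unit other is used here only because cells were damaged, and readable values were taken as FPKM. The submitters' processing notes list build mm8 and the tools Bowtie 0.12.2 and CASAVA 1.7 without saying what each did; no source used here names the counter or annotation. The lengths that the values imply equalled those of GENCODE M21 (GRCm38), the source of the coordinates, for 5 of 7 members, the exceptions being Fgf1 (4648 against 5463 bases) and Fgfr1 (8120 against 9875).

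Of 24720 rows, 5683 (22.99%) were left out as malformed, unreadable, unknown or not giving whole fragments in all 6 libraries (tolerance 1e-06 fragments plus a relative 3e-13). The same property gave the fragments behind each value and library totals, which spanned 11381122 (old mouse 2) to 17931463 (old mouse 3). Genes with a mean of at least 1 FPKM were tested on log2(FPKM + 1), two-sided, with limma 3.58.1 in R 4.3.3 (variance trend, no covariates, Benjamini-Hochberg over 10010 genes, threshold 0.05), after the code was tested on simulated data. Members under that filter got an exact permutation test. The labels name separate mice, so p-values measure the spread between mice. Members, the 7 pathway and 16 marker lists and the tests were chosen with earlier results of these data known. Named were all members, pathway genes past the threshold or else the 2 of highest mean, markers by list, and the 3 nearest profiles per tested member. Alternatives covered pseudocount, filter, scaling, trend, array weights, the replicate block, the fragment check, single libraries left out and young mouse 1 alone.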

Additional observations from a re-analysis of the deposited data

How the results depend on the processing

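The direction and call of Fgf1, Fgfr1, Met and Nrg1 were the same in all 16 alternatives run for each. The count of members past the threshold, 1 as reported, was 0 with the replicate block (Fgf7 limma adjusted p = 0.0846), 0 against young mouse 1 alone and 0 to 1 without single libraries; a filter at 5 FPKM left no member to test. The count over all genes, 498 as reported, was 323 with a pseudocount of 0.01, 223 without a filter, 292 with a filter at 5 FPKM, 126 with the replicate block (109 higher, 17 lower), and 84 to 395 without single libraries. The labels state no pairing by mouse number. Same-numbered old and young libraries deviated from their group means with correlations of -0.09, 0.00 and 0.01, and the other pairs with -0.18 to 0.16. Deviations within an age sum to 0, so these values constrain each other and cannot decide whether same-numbered mice share anything. Fgfr2 lost its call in 7 of 16 alternatives, Gpc3 in 4 of 17 and Hpn in 11 of 16. Areg passed against young mouse 1 alone (limma adjusted p = 0.0358) and Tpsb2 with array weights (0.0455). Spry2 changed sign with median-of-ratios scaling (0.0125) and array weights (0.0776), and without single libraries it ran from -0.115 to 0.0569. The cause of these shifts was not tested. Without single libraries, uncalled differences ran from -1.95 to -1.03 for Fyn, -0.73 to -0.29 for Spred1 and -0.66 to -0.16 for Erbb2. With the replicate block, 1 of 13 endothelial markers passed. Depth limits Fgf7 in young mice, Fgf2 and Fgf10 most, where few fragments stand behind each value.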
